A study of Homo sapiens with 3 samples.

Results

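The genes described here are the ligands, receptors and inhibitors of the Wnt pathway in MCF10A, a human breast epithelial line that is immortalized but does not form tumors. They are 41 genes fixed by name, comprising all 19 Wnt ligands, 10 Frizzled receptors and 12 genes that make, receive or restrain the signal, and all 41 were found among the 62754 genes of the deposited table. RNA-seq was done on 3 replicates, which carry an empty retroviral vector with no inserted gene, were selected with puromycin and received neither doxycycline nor another treatment. The study cultured MCF10A in DMEM/F12 with mammary epithelial growth supplements and cholera toxin, and sampled RNA at 27 h after seeding. It did not state whether the replicates came from separate cultures, so the spread between them may be technical, and the labels do not say whether the vector line is a clone. All 3 replicates are of the same condition, so no group can be compared with another, and the labels do not name a batch.

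Wnt proteins are secreted lipid-modified signals that bind a Frizzled receptor together with the co-receptor LRP5 or LRP6 on the cell surface. In the canonical branch this stops the breakdown of beta-catenin, which then enters the nucleus and activates target genes together with TCF and LEF factors, whereas other branches act on cell polarity and movement without beta-catenin. In the mammary gland the pathway is known for its part in ductal growth and in the maintenance of basal and stem-like cells.

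The unit is TPM, the reads of a gene divided by its length and scaled to a total of 1000000 per replicate, so that levels of different genes can be set side by side. With lengths from GENCODE release 44, every value of the 62700 genes found there could be written as a whole number of reads, on the premise that the smallest value stands for 1 read, and these summed to 15273329, 15446347 and 11166546 for the replicates. For a gene of 2000 bases, 1 TPM then stood for 8.97 to 10.8 reads. In replicate 3 the 10 highest genes took 23.8% of all TPM, against 12.7% and 13.1% in replicates 1 and 2, which lowers the TPM of other genes there. Of the genes listed for basal breast epithelium 12 of 12 were at or above 1 TPM, with KRT5 the highest at 6612 TPM and a summed level between 17361 and 21988 TPM per replicate. This list includes CDH1 at 29.1 TPM and EPCAM at 14.6 TPM, which are general epithelial genes. The luminal list had 4 of 8 genes at or above 1 TPM, with KRT18 the highest at 413 TPM and a summed level of 479 to 577 TPM. The others of these 4 were KRT8 at 118 TPM, GATA3 at 12.8 TPM and FOXA1 with 1.19, 0.790 and 1.34 TPM. Below 1 TPM were KRT19, ESR1 and PGR, with means of at most 0.0457 TPM, and ELF5 at 0. Markers of other cell types were low, with 2 of 7 fibroblast genes (summed level 13.6 to 14.8 TPM, DCN the highest at 9.05 TPM, COL1A2, LUM and PDGFRA at 0), 1 of 5 endothelial genes (1.94 to 2.36 TPM, PECAM1 the highest at 1.77 TPM, CDH5 at 0), 1 of 6 leukocyte genes (1.90 to 3.99 TPM, CD14 the highest at 1.96 TPM, CD3E at 0) and 0 of 3 adipocyte genes (0.153 to 0.261 TPM, PLIN1 the highest at 0.202 TPM, ADIPOQ and LEP at 0) at or above 1 TPM. In bulk RNA, fewer cells with a transcript and less of it in each cell cannot be told apart.

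The secreted inhibitor SFRP1 was the most abundant of the 41 transcripts, and the receptor machinery was present at moderate levels while the ligands were scarce. By the mean of the replicates, 23 of 41 genes reached 1 TPM, the cutoff at which enzymes were counted as expressed for the metabolic model. That is 56.1%, where the share was 56.7% among the 20046 protein-coding genes and 24.9% among all genes, so the count does not set the 41 genes apart from other coding genes. In every replicate 22 genes reached the cutoff, 53.7% against 55.2% of protein-coding genes and 21.5% of all genes. WNT5B and WNT9A had replicates on both sides of it, 4.88% of the 41 against 2.84% of protein-coding genes and 6.5% of all genes. The 41 genes summed to 1045, 994 and 864 TPM in replicates 1, 2 and 3, and SFRP1 alone made up 54.1% ± 0.908 (SD, n = 3) of this.

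**Figure D1:**
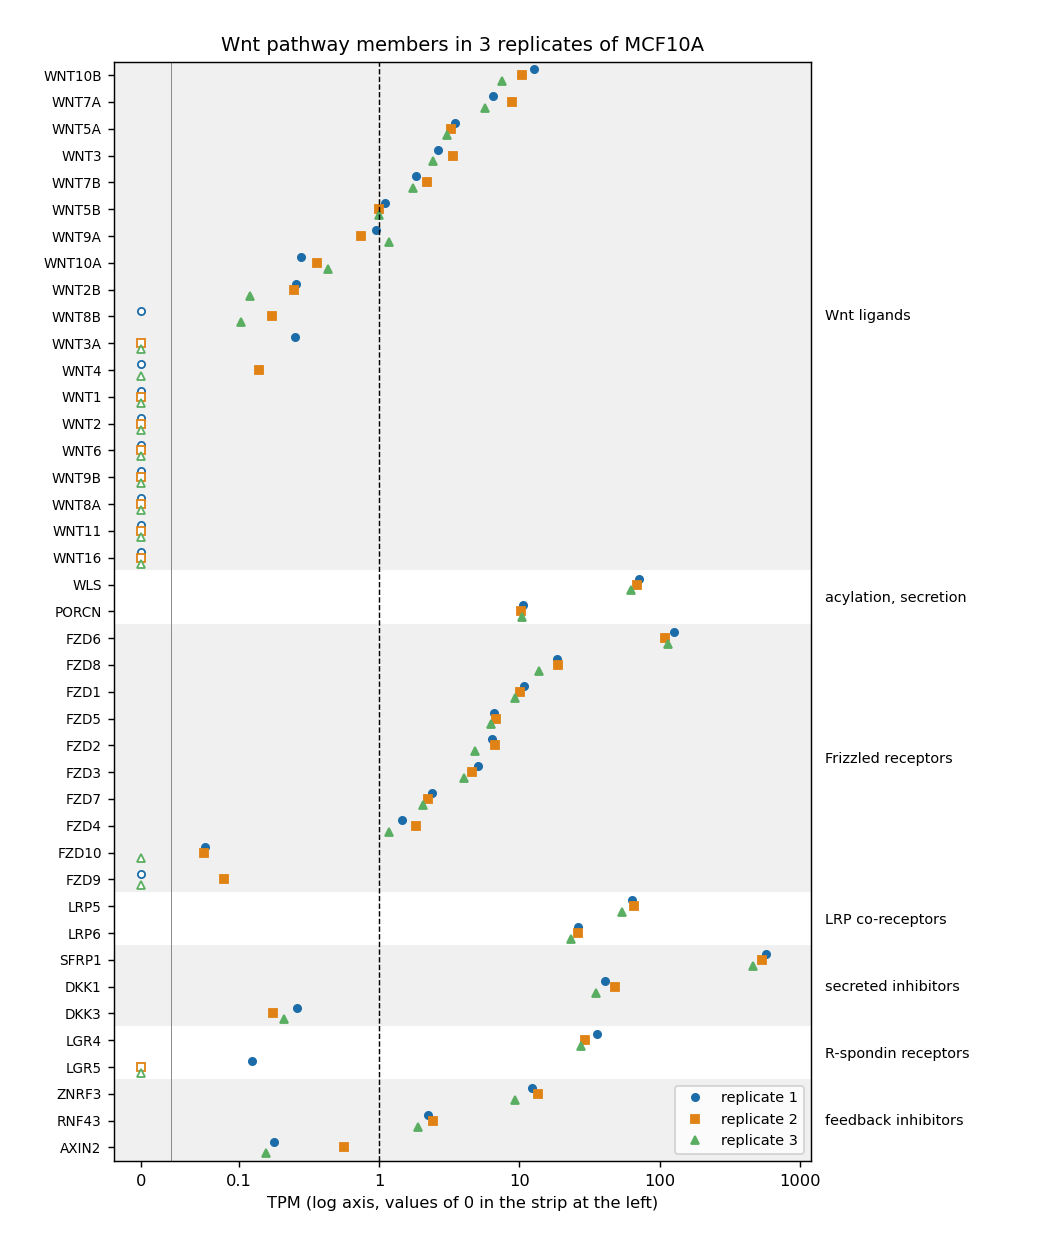
TPM of the 41 genes (vertical axis, grouped by role and ordered by mean within it) in replicates 1, 2 and 3 on a log axis, with values of 0 as open symbols in the strip at the left and the cutoff of 1 TPM as a dashed line. SFRP1 lies farthest to the right at 460 to 575 TPM, 12 of the 19 ligands lie left of the cutoff in every replicate or at 0, and the 3 replicates of most other genes lie close together.

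Among the ligands, 6 of 19 were at or above 1 TPM by the mean, and their levels summed to 29.9, 30.7 and 23.2 TPM in replicates 1, 2 and 3, a mean of 27.9 ± 4.09 TPM (SD, n = 3). The highest was WNT10B (ENSG00000169884, chromosome 12 of hg38 from 48965340 to 48971735), a ligand known to act through beta-catenin, with 12.6, 10.5 and 7.56 TPM from 149, 127 and 76 reads. Its counting intervals in replicates 1 and 3, 10.7 to 14.8 and 5.96 to 9.47 TPM (exact Poisson, 95%), did not overlap. WNT7A (ENSG00000154764), an epithelial ligand, had 6.47, 8.80 and 5.65 TPM from 136, 190 and 101 reads. WNT10B was above WNT7A in each of the 3 replicates, by 1.19 to 1.95-fold, but the lowest replicate of WNT10B lay below the highest of WNT7A, so their ranges overlapped. Together both ligands held 61.2% ± 3.79 (SD, n = 3) of the summed ligand TPM.
WNT5A, the best known ligand of the branch without beta-catenin, had 3.49, 3.24 and 3.03 TPM, and WNT3, a beta-catenin ligand, had 2.62, 3.36 and 2.42 TPM. The ranges of WNT5A and WNT3 overlapped, and that of WNT5A lay wholly below that of WNT7A. WNT7B, the closest relative of WNT7A, had 1.83, 2.20 and 1.75 TPM, and WNT7A was 3.59 ± 0.390 times higher (SD, n = 3). WNT5B, the closest relative of WNT5A, had 1.10, 0.992 and 0.999 TPM from 13, 12 and 10 reads, and WNT5A was 3.15 ± 0.117 times higher (SD, n = 3). Of both pairs of relatives, 1 gene was thus above the other in every replicate, with no overlap between the ranges.
WNT9A lay at the cutoff, with 0.948, 0.738 and 1.17 TPM from 20, 16 and 21 reads, and its counting interval spanned 1 TPM in each replicate, as did that of WNT5B. Whether these ligands lie above or below 1 TPM was not detectable at this depth. Below 0.5 TPM, WNT2B had 15, 15 and 6 reads, WNT10A 3, 4 and 4 reads, WNT3A 4, 0 and 0 reads, WNT8B 0, 2 and 1 reads and WNT4 0, 3 and 0 reads. For WNT2B, 23.9% of the canonical transcript overlaps ST7L on the opposite strand, a gene at 11.7 TPM, and since the use of strand in counting is not given, the reads of both cannot be told apart there. WNT1, WNT2, WNT6, WNT8A, WNT9B, WNT11 and WNT16 had 0 reads in every replicate, and at a limit of 3 reads per replicate this allows 0.111 to 0.401 TPM, depending on gene and replicate. Of the 41 genes these 7 ligands were the only ones with 0 reads throughout, 17.1% against 26.2% of protein-coding genes and 58.2% of all genes.

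**Figure D2:**
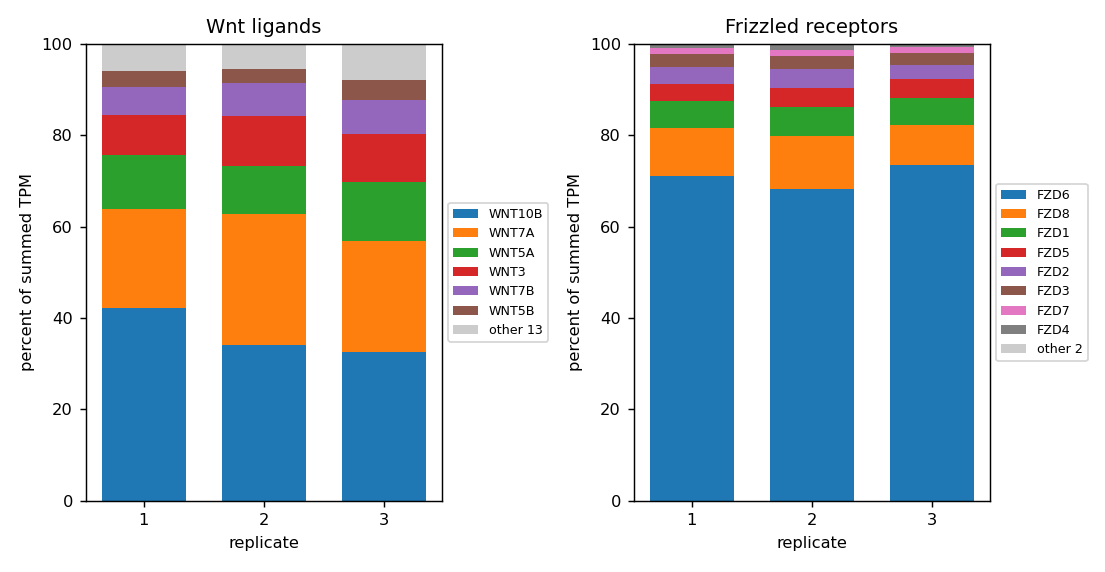
Share of each ligand (left) and each Frizzled receptor (right) in the summed TPM of its family, in percent, for replicates 1, 2 and 3; the named segments are the genes at or above 1 TPM by the mean and light grey is the rest. WNT10B takes 32.5% to 42.2% of the ligand total and FZD6 68.3% to 73.5% of the Frizzled total.

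Several Wnt ligand genes lie next to each other in the genome, and the ligands at or above 1 TPM include 1 gene of each of 2 such pairs. With neighbours taken as ligand genes within 200000 bases, chosen as a property after the values were seen, there were 4 pairs, and no protein-coding gene lay between the genes of any pair. Distances are between the start sites of the canonical transcripts, and for WNT3 and WNT9B, which have other annotated transcripts, the outer ends of the genes are only 46 bases apart. WNT10B had 10.2 ± 2.54 TPM (SD, n = 3) while WNT1, which starts 6587 bases away on the opposite strand of chromosome 12, had 0 reads. WNT3 had 2.80 ± 0.495 TPM (SD, n = 3) while WNT9B, which starts 32891 bases away on the opposite strand of chromosome 17, had 0 reads. WNT9A had 0.952 ± 0.216 TPM (SD, n = 3) while WNT3A, 59066 bases away on chromosome 1, had 4 reads, all in replicate 1. In the pair on chromosome 2, WNT10A had 11 reads in all and WNT6, which starts 21047 bases away on the same strand, had 0 reads. The replicates of the genes within a pair did not overlap for any of the 4 pairs, but the counting intervals of WNT10A and WNT6 overlapped, and so did those of WNT9A and WNT3A in replicate 1, at 0.579 to 1.46 and 0.0691 to 0.649 TPM.
The promoters of WNT3 and WNT9B are shown because they belong to a neighbouring pair in which WNT3 had reads in every replicate and WNT9B had none. They are the 250 bases before the RefSeq start on GRCh38.p14, on the minus strand at chr17:46818693-46818942 for WNT3 and on the plus strand at chr17:46851333-46851582 for WNT9B, with CG dinucleotides in capitals.
WNT3: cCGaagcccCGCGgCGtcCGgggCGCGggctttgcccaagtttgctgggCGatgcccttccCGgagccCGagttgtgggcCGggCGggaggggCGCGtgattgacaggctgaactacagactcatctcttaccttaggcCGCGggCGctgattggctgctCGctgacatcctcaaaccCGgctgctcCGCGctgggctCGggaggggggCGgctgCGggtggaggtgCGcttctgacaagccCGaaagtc
WNT9B: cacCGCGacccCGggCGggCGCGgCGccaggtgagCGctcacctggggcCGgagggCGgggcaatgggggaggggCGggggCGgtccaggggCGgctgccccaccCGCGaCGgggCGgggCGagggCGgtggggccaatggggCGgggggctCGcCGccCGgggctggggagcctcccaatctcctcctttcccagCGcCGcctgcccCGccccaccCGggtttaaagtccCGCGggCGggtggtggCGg
Both are rich in CG, with 26 in WNT3 and 31 in WNT9B, where the median over 35116 promoters of that length was 11. RefSeq promoters were matched for 27 of the 41 genes, 33 promoters in all, since some genes have more than 1. The 14 genes without a match include SFRP1, FZD6, WNT10B, LRP6, AXIN2, LGR5 and ZNRF3. The 14 promoters of genes below 1 TPM had a median of 30 CG dinucleotides and the 19 of genes at or above it had 18, with ranges of 3 to 44 and 0 to 43 that overlapped. The former were all of ligands except that of FZD9, while the latter were mostly of genes with other roles. A link between CG content and level was not tested. The letters GGGCGG, the GC box, were in 22 of the 33 promoters (66.7%) against 42.6% of all promoters, and CCAAT in 13 of the 33 (39.4%) against 32.0%, both searched on both strands. The median share of G and C was 65.2% in the 33 promoters and 58% in all promoters. Whether GGGCGG was more frequent than at a like share of G and C was not tested.

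**Figure D3:**
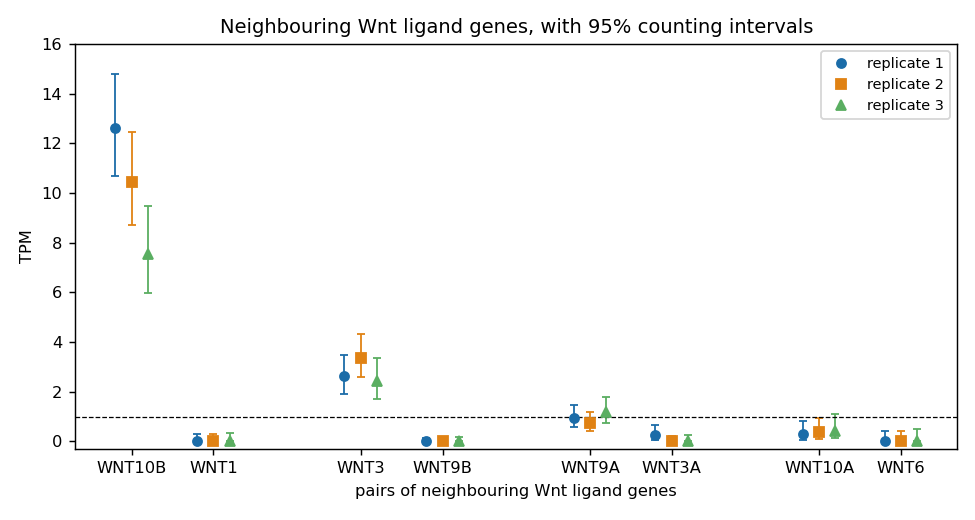
TPM of the 4 pairs of neighbouring Wnt ligand genes in replicates 1, 2 and 3 (symbols), with exact Poisson 95% intervals for counting error (bars) and the cutoff of 1 TPM (dashed line). WNT10B and WNT3 lie above the cutoff in all replicates while WNT1 and WNT9B lie at 0.

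Both genes that make and export active ligand were expressed in every replicate. PORCN, the acyltransferase that attaches the lipid to Wnt proteins, had 10.6, 10.3 and 10.4 TPM, and its coefficient of variation of 1.17% was the lowest of the 23 genes at or above 1 TPM. WLS (ENSG00000116729), the carrier that takes the acylated ligand to the cell surface, had 71.1, 68.5 and 62.8 TPM and was 6.47 ± 0.367 times higher than PORCN (SD, n = 3). The level of PORCN rests on the length used, since its longest transcript is well above its canonical transcript, and with canonical lengths for all genes it was 15.1 TPM while WLS was 55.0 TPM. WLS stayed above PORCN in both cases.

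The Frizzled receptors, which bind the ligands through a cysteine-rich domain, were led by FZD6, and 8 of 10 reached 1 TPM in each of the 3 replicates. Their sum was 178, 161 and 156 TPM, which was 5.97 ± 0.743 times the sum of the ligands (SD, n = 3). FZD6 (ENSG00000164930), a receptor mostly studied in cell polarity, had 126, 110 and 115 TPM and made up 71.0% ± 2.60 (SD, n = 3) of the Frizzled total. FZD8 followed with 18.4, 18.8 and 13.7 TPM, and FZD6 was 7.03 ± 1.27 times higher (SD, n = 3). Next was FZD1 with 10.8, 10.02 and 9.35 TPM, wholly below FZD8.
The ranges of FZD5, at 6.61, 6.79 and 6.31 TPM, and FZD2, at 6.43, 6.69 and 4.84 TPM, overlapped, and so did those of FZD2 and FZD3, at 5.10, 4.59 and 4.03 TPM. FZD5 was nevertheless above FZD2, and FZD2 above FZD3, in each of the 3 replicates. FZD7 had 2.40, 2.21 and 2.04 TPM, and FZD4 had 1.46, 1.82 and 1.18 TPM. These last receptors were separate from each other and from FZD3, so that of the 7 steps down the order of the 8 expressed receptors 5 were without overlap. The transcript of FZD4 overlaps PRSS23, a gene at 3.49 TPM on the opposite strand, over 18.9% of its length. FZD10 had 1, 1 and 0 reads and FZD9 had 0, 1 and 0 reads, both under the limit of 3 reads in every replicate.
The co-receptors that Wnt ligands share with the Frizzled receptors were both well above the cutoff. LRP5 (ENSG00000162337, chromosome 11) had 63.2, 65.5 and 53.8 TPM, and LRP6 (ENSG00000070018, chromosome 12) had 26.2, 26.2 and 23.5 TPM. LRP5 was 2.40 ± 0.107 times higher than LRP6 (SD, n = 3), with no overlap. Of the Frizzled receptors only FZD6 was above LRP6.

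The secreted inhibitors listed differed widely in level. SFRP1 (ENSG00000104332), a decoy that binds Wnt ligands with a domain like that of the Frizzled receptors, had 575, 538 and 460 TPM from 13520, 12997 and 9194 reads. It ranked at 213 of the 11360 protein-coding genes at or above 1 TPM, and it was 18.8 ± 1.18 times the sum of all 19 ligands and 3.17 ± 0.209 times the sum of all 10 Frizzled receptors (SD, n = 3 each). DKK1 (ENSG00000107984, chromosome 10 from 52314281 to 52318042), which blocks LRP5 and LRP6 and is itself a known target of beta-catenin, had 40.7, 48.4 and 35.0 TPM. SFRP1 was 12.8 ± 1.54 times higher than DKK1 (SD, n = 3), and DKK1 was 1.48 ± 0.109 times the summed ligands (SD, n = 3). DKK1 overlaps PRKG1-AS1 on the opposite strand over 12.6% of its transcript, and that gene had a mean of 0.378 TPM. DKK3, a divergent member of the Dickkopf family, had 0.259, 0.174 and 0.210 TPM from 13, 9 and 9 reads, and with canonical lengths it was at 0.662 TPM, still below the cutoff.
DKK1 was the only gene of the 27 with a matched promoter in which the TCF core was found. The 14 genes without a match, among them AXIN2, LGR5 and ZNRF3, could not be searched. The motif was searched as CTTTGAA or CTTTGAT on both strands, and 5.94% of the 35116 promoters of 250 bases held it, against 1 of the 33 here. The 250 bases before the RefSeq start of DKK1 on GRCh38.p14, chr10:52314031-52314280 on the plus strand, are given with the TCF core in capitals, which begins 95 bases before the start.
DKK1: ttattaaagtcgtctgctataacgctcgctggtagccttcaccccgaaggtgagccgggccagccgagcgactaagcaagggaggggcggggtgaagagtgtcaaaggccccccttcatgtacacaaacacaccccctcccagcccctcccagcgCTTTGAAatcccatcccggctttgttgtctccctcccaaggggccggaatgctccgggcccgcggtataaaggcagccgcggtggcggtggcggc
The same promoter holds the letters TATAAA, beginning 30 bases before the start, which 10.7% of all promoters and 3 of the 33 here hold on either strand. A match of these letters is not a measured binding site.

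The genes that set how long receptors stay at the surface were expressed unevenly. LGR4, a receptor for R-spondins, which protect Frizzled receptors from removal, had 35.8, 29.3 and 27.5 TPM, while its relative LGR5, a marker of stem cells in several epithelia, had 3, 0 and 0 reads. ZNRF3, a ubiquitin ligase that removes Frizzled receptors, had 12.3, 13.7 and 9.36 TPM, and RNF43, the other ligase of this kind, had 2.25, 2.42 and 1.88 TPM. ZNRF3 was 5.36 ± 0.350 times RNF43 as deposited (SD, n = 3). This ratio depends on how reads were assigned, because 71.0% of the canonical transcript of RNF43 also belongs to ENSG00000285897, annotated on the same strand and measured at 0.0769 TPM. If the reads counted for RNF43 came from the unshared bases of its canonical transcript alone, its level would be 9.27 ± 1.17 TPM (SD, n = 3). The ranges of both ligases would then overlap. This is a high estimate, because the length behind its TPM was 5566 bases against 4522 for the canonical transcript. Sharing of bases outside the canonical transcript was not checked, and reads from there would lower the level.
AXIN2 (ENSG00000168646, chromosome 17 from 65528563 to 65561648), a scaffold of the complex that breaks down beta-catenin and a widely used reporter of beta-catenin activity, was below 1 TPM with 0.179, 0.565 and 0.157 TPM. This rests on 4, 13 and 3 reads, and the counting interval of replicate 2, 0.301 to 0.966 TPM, overlapped both others. A gene with 0 reads on the same strand covers 30.9% of its canonical transcript, and with reads from unshared bases alone AXIN2 would be at 0.433 ± 0.331 TPM (SD, n = 3), still below the cutoff in every replicate.

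Down the order of the 23 genes at or above 1 TPM, from SFRP1 to WNT5B, 10 of the 22 steps between neighbours showed no overlap of the replicates and 12 did. With 3 values against 3, the smallest two-sided p of an exact permutation test is 0.1, so no p-value is given for any step. The first steps were wide, with SFRP1 above FZD6 by 4.47-fold and FZD6 above WLS by 1.73-fold (geometric means of the replicates). WLS and LRP5 overlapped, as did DKK1 and LGR4, although the first of each was higher in every replicate. ZNRF3, PORCN, WNT10B and FZD1, with means between 10.04 and 11.8 TPM, were not separate from each other, since their ranges overlapped. ZNRF3 was nevertheless above FZD1 in every replicate, though barely in replicate 3 at 9.358 against 9.349 TPM. WNT10B, the highest ligand, thus lay at the level of PORCN and FZD1, and ranked at 8312 of the 11360 protein-coding genes that reached 1 TPM.

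Other genes of the pathway, 98 in 9 lists with shared genes counted once, had 68 at or above 1 TPM. For this and the counts by list below, the share was 56.7% among all protein-coding genes and 24.9% among all genes. Among further inhibitors, secreted or at the membrane, and their partners 3 of 16 were at or above 1 TPM, with a median of 0.0372 TPM. TRABD2A, a protease that inactivates Wnt ligands, was the highest at 24.5 ± 2.67 TPM, followed by KREMEN1, a receptor for Dickkopf proteins, at 13.5 ± 2.18 TPM (SD, n = 3 each). APCDD1, a membrane-bound inhibitor, had 1.25, 2.24 and 0.763 TPM and TRABD2B 0.656, 1.03 and 0.979 TPM, so both had replicates on either side of the cutoff. Of the other secreted Frizzled-related genes, named after their values were seen, SFRP2, SFRP4 and SFRP5 had 0 reads in every replicate and FRZB had 0, 2 and 0 reads. Of the R-spondins and LGR6 0 of 5 were at or above 1 TPM, where LGR6 was the highest at 0.272 TPM, RSPO2 had 4, 1 and 2 reads, and RSPO1, RSPO3 and RSPO4 had 0 reads.
Receptors for Wnt ligands outside the Frizzled family were at or above 1 TPM for 3 of 5. PTK7 and RYK, both receptor-like proteins without an active kinase, had 57.3 ± 6.47 and 56.7 ± 4.22 TPM, which overlapped, and ROR1 had 2.62 ± 0.324 TPM (SD, n = 3 each). The planar polarity genes were at or above 1 TPM for 10 of 10, led by SCRIB at 81.5 ± 11.7, CELSR1 at 44.2 ± 5.70 and VANGL1 at 32.9 ± 3.65 TPM (SD, n = 3 each, as for the other means of these lists). Genes listed for transport of the ligands or recycling of their carrier were so for 6 of 6, led by TMED2 at 356 ± 34.4, SNX3 at 196 ± 13.8 and VPS29 at 116 ± 0.304 TPM. Of the glypicans and syndecans, surface proteoglycans that can hold Wnt ligands, 7 of 10 were, with SDC1 at 762 ± 115, SDC4 at 143 ± 8.08 and GPC1 at 74.3 ± 11.5 TPM, and SDC2 had 1.38, 1.57 and 0.675 TPM.
Most genes of the relay inside the cell reached the cutoff. In the cytoplasmic relay and destruction complex 19 of 22 genes were at or above 1 TPM with a median of 37.3 TPM, led by CTNNB1, which encodes beta-catenin, at 282 ± 15.7 TPM (SD, n = 3), CSNK1A1 at 140 ± 13.0 TPM with 47.5% of its canonical transcript shared with other genes, and DVL1 at 111 ± 18.0 TPM. Among the nuclear factors 16 of 17 were, with a median of 15.3 TPM, led by the corepressor TLE5 at 130 ± 15.7, CHD8 at 58.7 ± 8.15 and the beta-catenin inhibitor CTNNBIP1 at 46.6 ± 4.33 TPM, while TLE2 had 0.748, 1.52 and 1.20 TPM. Of other known beta-catenin targets 6 of 12 were at or above 1 TPM with a median of 1.03 TPM. MYC at 406 ± 72.6, CD44 at 382 ± 42.3 and CCND1 at 167 ± 21.3 TPM led this list, and all are known to be controlled by many other signals. Its remaining genes were APCDD1 and, chosen after their values were seen, LEF1 at 9.80 and SOX9 at 9.02 TPM, and those below the cutoff, SP5 at 0.298, NKD1 at 0.233, TCF7 at 0.646 and TNFRSF19 at 0.137 TPM, with ASCL2 and NOTUM at 0 reads.

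**Figure D4:**
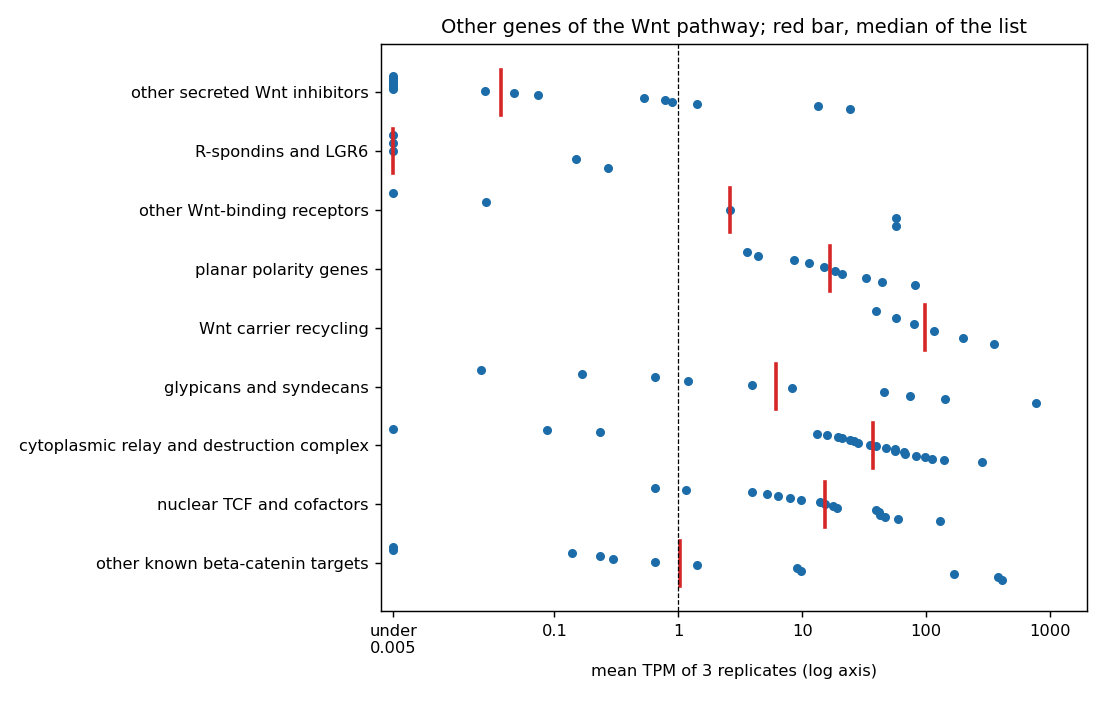
Mean TPM over 3 replicates of each gene (points) in the 9 lists of other Wnt pathway genes, on a log axis with values under 0.005 at the left edge; the red bar is the median of a list and the dashed line is 1 TPM. The lists of R-spondins with LGR6 and of further inhibitors and their partners lie mostly left of the cutoff, with 0 of 5 and 3 of 16 genes past it. These 3 are TRABD2A, KREMEN1 and APCDD1. The polarity, carrier, cytoplasmic and nuclear lists lie mostly right of it.

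The replicates differed less for these genes than the levels between them did. In TPM as deposited, the median coefficient of variation over the 23 genes at or above 1 TPM was 11.7%. Single genes ranged from 1.17% for PORCN to 24.8% for WNT10B. Over all protein-coding genes at or above 1 TPM the median was 11.8%. Of the 24 genes with a replicate at or above 1 TPM, 10 had a pair of replicates whose counting intervals did not overlap, among them SFRP1 in all 3 pairs, and 14 had none. Each of these 10 had such a pair with replicate 3, where the TPM of most genes is lower. The share among all genes was not computed, nor were intervals on TPM scaled to protein-coding genes, so the count does not set these genes apart. Replicate 3 was below the mean of replicates 1 and 2 for 23 of 23 genes (100%), with a median log2 ratio of -0.26, but this was also so for 89.5% of protein-coding genes and 84% of all genes, and the median over all genes with reads on both sides of the ratio was -0.25. With TPM scaled so that protein-coding genes sum to 1000000, 14 of 24 genes (58.3%) were below, against 61.5% of protein-coding genes and 61.6% of all genes, and the median was -0.06 for both the pathway genes and all genes. WNT10B was the farthest below, with a log2 ratio of -0.61 as deposited.

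**Figure D5:**
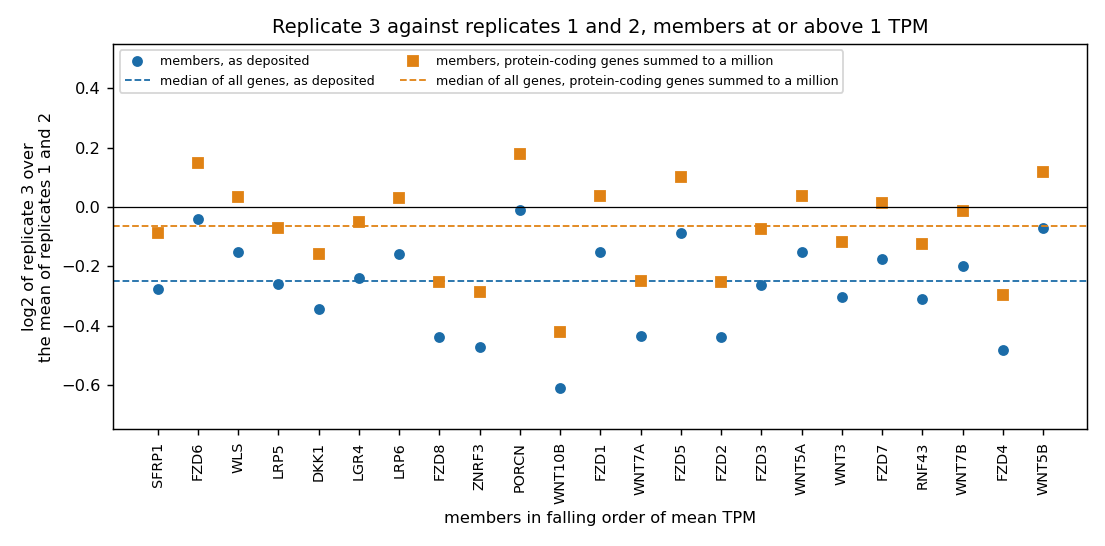
Log2 ratio of replicate 3 over the mean of replicates 1 and 2 for the 23 genes at or above 1 TPM, in falling order of mean TPM, as deposited (circles) and with protein-coding genes scaled to a common total (squares); dashed lines are the medians over all genes at or above 1 TPM. All circles lie below 0 around the median of -0.25, and the squares lie on both sides of 0.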

How the data were processed

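RNA-seq of 3 replicates of untreated MCF10A cells with an empty vector was used. Ribosomal RNA was depleted during library preparation, which started from 300 ng. Mapping to hg38 and counting were done by the authors with Seq2science, and the submitters' processing notes name STAR, fastp and MultiQC. The release of the annotation, and whether counting used strand, are not given in the sources used here. The authors deposited TPM values, in which each replicate sums to 1000000, without pooling replicates. All value columns were matched to samples by library name.

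TPM was used as deposited. Genes were matched by Ensembl identifier to GENCODE release 44 (62700 of 62754), and symbols were taken from there. Reads were recovered as TPM times length divided by the smallest product in each replicate, where the length was that of the longest transcript with 1 base less per exon. All values of these genes were whole within 0.001 reads, which rests on the smallest step being 1 read. In simulated reads on 62700 genes 100% were returned, but this checks the arithmetic only. The same lengths served in both directions, so it cannot test the lengths or the premise of 1 read. Intervals are exact Poisson at 95% and the limit for 0 reads was 3 reads per replicate, and both cover counting error only. Exon sharing was computed with bedtools 2.31.1. Errors are SDs between replicates, and the levels of 2 genes were called separate where their replicates did not overlap. Promoters are from RefSeq (GRCh38.p14), with motifs searched on both strands (TCF core, TATA box, CCAAT box, GC box).

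The members, the gene lists and the tests were chosen with earlier results of these data known. The text names all members, the 3 highest genes of each pathway list with every gene called differently between replicates, and the highest gene of each marker list. Other genes are named for being at 0 or close to it, to complete the luminal list, or as chosen after their values were seen. Alternatives were the cutoff, the median of the replicates, leaving out each replicate, the pseudocount and filter, the canonical length and scaling to protein-coding genes. Scripts ran under Python 3.11.15 (scipy 1.17.1, pandas 2.3.3, matplotlib 3.10.9, numpy 2.4.6).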

Additional observations from a re-analysis of the deposited data

How the results depend on the processing

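No paired analysis was possible because the design holds a single condition. Of the 41 genes 23 reached 1 TPM by the mean, and this count lay between 20 (cutoff of 2 TPM) and 24 under the alternatives. It was 22 to 24 when a replicate was left out, since WNT5B was below 1 TPM without replicate 1 and WNT9A above it without replicate 2. The number called differently between replicates was 2, and 1 at a cutoff of 0.5 TPM and with protein-coding genes summing to 1000000. It was 1 to 2 when a replicate was left out. The median log2 ratio of replicate 3 lay between -0.26 and -0.06, below 0 throughout.

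With protein-coding genes summing to 1000000, which raised the median of all genes by 0.20 on the log2 scale, the sums were 89.7 TPM for acylation and secretion, 190 for the Frizzled receptors, 98.9 for the LRP co-receptors, 649 for the secreted inhibitors and 35.5 for the R-spondin receptors. With canonical lengths, where the median of all genes fell by 0.30, they were 70.1, 134, 70.1, 461 and 25.2 TPM in this order and 22.9 TPM for the ligands. Of 24 single levels, 15 moved by more than 1 SD under the first, all upward, and 17 under the second. Of these 17 only PORCN moved upward, and RNF43 rose by less than 1 SD, from 2.18 to 2.19 TPM. The first scaling multiplies every level of a replicate by the same factor, so its upward direction was fixed. The canonical transcript of PORCN has 1867 bases, while the length behind its TPM was 3285 bases. The level of RNF43 with reads from unshared bases of the canonical transcript alone, an alternative chosen after seeing the data, was 9.27 in place of 2.18 TPM, a high estimate. Depth limits the calls of WNT5B and WNT9A.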
